A study of Vitis rotundifolia with 18 samples.

Results

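Berries of the muscadine grape, Vitis rotundifolia, labelled as the cultivar Noble were compared at maturity (E-L 38) and at veraison (E-L 35). The members are the 6 libraries whose labels give Noble and one of these stages, 3 at E-L 38 and 3 at E-L 35, out of 18 libraries in all. The other 12 libraries are Noble at E-L 32 (bunch closure) and Carlos at E-L 32, E-L 35 and E-L 38, with 3 each. E-L is a numbered scale of grapevine growth. All groups are total RNA of berries collected at one research station in Florida. The labels give no vine, harvest or treatment. Nothing says that replicates were separate vines or pickings. The p-values therefore reflect no more than the variation among these libraries, and that variation may be technical.

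Veraison is the onset of ripening, when a grape berry softens, takes up sugar, loses acid and, in dark cultivars, begins to colour. By maturity those processes have run their course and the berry is ready for harvest. Noble is a dark-skinned muscadine cultivar, and its skin colour comes from anthocyanins. Carlos is a bronze cultivar that stays light. A berry holds skin, flesh and seed, so in these bulk samples fewer cells of a type and less RNA per cell cannot be told apart.

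The genes appear here by identifier only. The tables hold 27228 identifiers, of which 26588 begin with VIT_ and 640 with ENSRNA, and they carry no gene names. None of them (0) matched the 27334 entries of a RefSeq gene table for the assembly VITMroCarlos_v1.3, which is of Carlos. No gene is therefore given a name, a role, a position or a sequence, and the labelled tissue and cultivar could not be checked against genes of known function.

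Depth was similar in both groups. Each library is described by its expected counts, the authors' estimates of the reads belonging to each gene. The Noble E-L 38 libraries held 21767325 to 26109619 expected counts, and the Noble E-L 35 libraries held 22554635 to 30719459. After counts were thinned to the same depth of 18919154, the Noble E-L 38 libraries had 17439, 17583 and 17631 genes with counts, against 18052, 18541 and 17862 in Noble E-L 35 libraries. The means were 17551 ± 100 and 18152 ± 350 genes (SD, n = 3 each). The groups did not overlap, and the two-sided exact permutation p was 0.1, the smallest that 3 against 3 libraries allow. Correlation of log2 CPM (counts put on one scale for library size by the TMM method) between replicates was 0.982 to 0.988 at Noble E-L 38 and 0.968 to 0.979 at Noble E-L 35.

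A few libraries stood apart from the other replicates of their group. In Noble E-L 35 replicate 2, its most abundant gene took 2.54% of counts, against 0.788% and 0.839% for the same gene in replicates 1 and 3. In Carlos E-L 35 replicate 3, the most abundant gene took 9.56% of counts, and the 10 most abundant genes took 30.2% of TPM (a level scaled by transcript length and to a common total), against 8.34% and 8.40% in replicates 1 and 2. Carlos E-L 38 replicate 3 also stood apart, with 1.68% of counts in its most abundant gene against 0.820% and 0.859%. The Carlos libraries matter here because all 18 libraries share an estimate of the spread.

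The labels at E-L 38 carry a doubt that bears on every value below. Genes that differed between the cultivars at both earlier stages mostly differed the other way at E-L 38. Choosing genes at both stages was decided after seeing the data, and the planned check, with genes chosen at E-L 32 alone, is given further below. There were 184 genes with a difference of at least 4-fold in the same direction at both E-L 32 and E-L 35, each called at an adjusted p under 0.05 by the quasi-likelihood test of edgeR. At E-L 38 the sign of the difference in mean log2 CPM was the opposite for 173 of these genes and the same for 11, which is 5.98%. A few of the 184 had a fitted log2 difference of 0 there, so their counted sign shows no direction. In the E-L 38 test, 124 of the 184 were called in the opposite direction and 1 in the same direction. Of all genes tested, 23.4% were called between the labels at E-L 38, beside 27.5% at E-L 32 and 19% at E-L 35. The median difference at E-L 38, as log2 of Noble over Carlos, was -3.27 for the 96 genes that had been higher in Noble and 3.45 for the 88 that had been higher in Carlos. With a minimum of 16-fold at both stages, 52 of 53 genes turned round, and with 2-fold, 439 of 468, with the same limit on the sign. The E-L 38 levels are on neither side of the differences that chose these genes, but the E-L 38 libraries enter the shared estimate of the spread behind the calls.

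**Figure D1:**
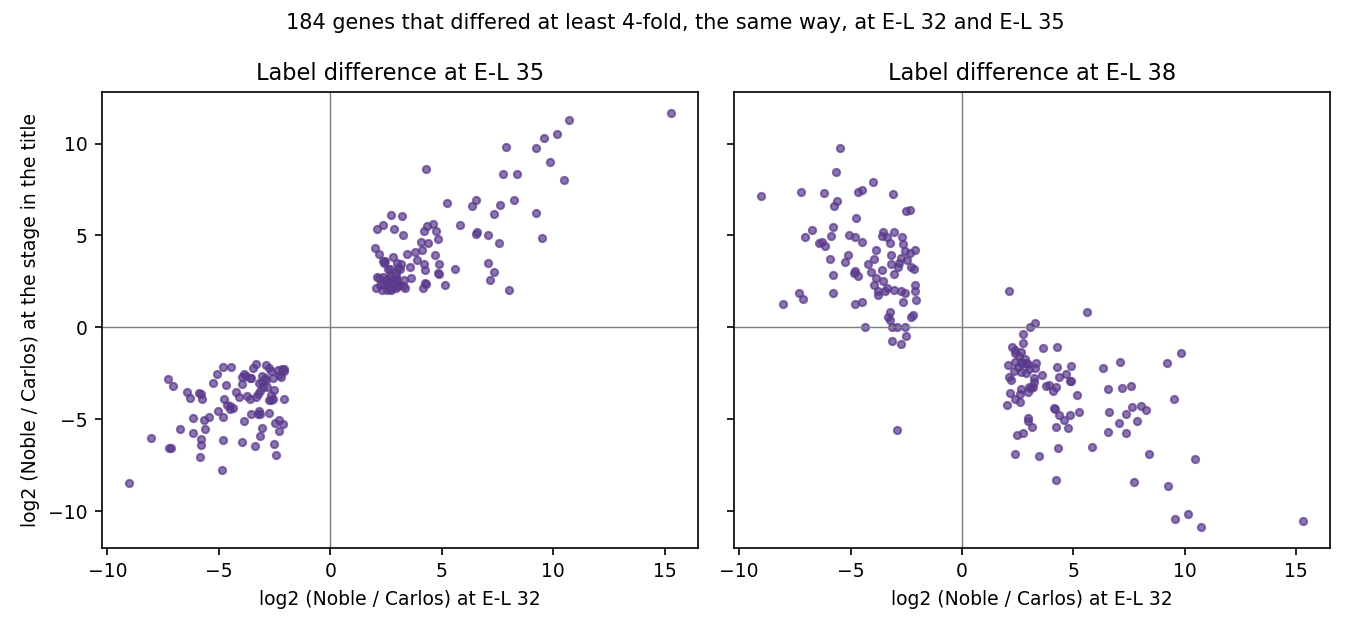
The 184 genes that differed at least 4-fold the same way at E-L 32 and E-L 35, each a point, with log2 of Noble over Carlos at E-L 32 on the x axis and at E-L 35 (left) or E-L 38 (right) on the y axis. At E-L 35 the points lie in the same-sign areas by the choice of genes. At E-L 38 most of the 184 lie in the opposite-sign areas and a few lie at 0. The points are fitted differences, and the sign of the difference in mean log2 CPM turned for 173.

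Genes chosen at E-L 32 alone, which was the planned check, turned round less uniformly. Among 1233 genes that differed at least 4-fold at E-L 32, 60.1% kept their sign at E-L 35 and 42.3% kept it at E-L 38 (521 genes, exact binomial 95% interval 39.5 to 45.1%, counting error over genes only). No counts were present at E-L 38 for 96 of them, and of the 1137 with counts 41.8% kept the sign.

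Of the 2 identifiers with the largest label differences at E-L 32, the one higher in Noble turned round at E-L 38 and the other was too low there to tell. VIT_04s0008g04060 had 0, 0 and 2.79 CPM in the Noble-labelled E-L 38 libraries and 1623, 1561 and 1118 CPM in the Carlos-labelled ones. At E-L 35 it had 1359, 886 and 1291 CPM in Noble, against 0.550, 0.486 and 0 CPM in Carlos. At E-L 32 it had 257, 175 and 177 CPM in Noble and 0 in all Carlos libraries. High libraries were thus those labelled Noble at the earlier stages and those labelled Carlos at E-L 38, with no overlap. VIT_06s0061g00970 was the opposite case at E-L 32, with 0 in all Noble libraries and 21.7, 21.2 and 22.3 CPM in Carlos. Later, at E-L 38, it had 0.101, 0 and 0.451 CPM under the Noble label and 0 in all Carlos-labelled libraries, and at E-L 35 it was at 0 in Noble and at 0.118, 0 and 0.839 CPM in Carlos. Its later values are too low to show a direction.

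An exchange of the cultivar labels at E-L 38 is therefore possible, and no measurement apart from expression was at hand to test it. With these tables, an exchange at E-L 38, an exchange at both earlier stages and a turn of the cultivar differences with ripening cannot be told apart. The counts of called genes, the TPM shares and the named identifiers are given for the E-L 38 libraries labelled Noble and also for those labelled Carlos, both against Noble E-L 35. Results given for the Noble label only include genes detected at common depth, level classes, gene lengths and identifier prefixes. They also include permutation tests, shares of genes without overlap, percentiles of the change, and rises and falls among the most abundant genes. The contrasts with either E-L 38 group share the 3 Noble E-L 35 libraries.

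Both directions of change were frequent between veraison and maturity under the labels as given. In Noble E-L 38 against Noble E-L 35, 5746 of 17657 tested genes (32.5%) were called by edgeR's quasi-likelihood test at a Benjamini-Hochberg adjusted p under 0.05. Of these, 2696 genes (15.3%) rose and 3050 (17.3%) fell. The groups did not overlap for 95.2% of the called genes, against 47% of all genes tested. The median log2 fold change of all tested genes was -0.04, with 0.32 at the 75th percentile and -0.57 at the 25th.

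Large falls outnumbered large rises. At a change of at least 2-fold, 889 genes (5.03%) rose and 1858 (10.5%) fell. At 4-fold, 376 (2.13%) rose and 972 (5.50%) fell, and at 16-fold 82 (0.464%) rose and 302 (1.71%) fell. Genes that fell thus outnumbered those that rose by 1.13 to 1 at any size and by 3.68 to 1 at 16-fold. Part of the largest changes rests on genes with no counts in one group, 125 of the called genes in Noble E-L 38 and 20 in Noble E-L 35. With such genes set at the bound given by 3 counts over the group, 68 rose and 206 fell by at least 16-fold. The 16-fold counts also moved with the libraries and the tool. Without Noble E-L 35 replicate 2 they were 129 and 268. With Noble E-L 32 replicate 1 and Carlos E-L 35 replicate 3 left out as well they were 139 and 295. With only these 6 libraries in the fit 65 rose and 153 fell, and with limma-voom 75 and 193.

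**Figure D2:**
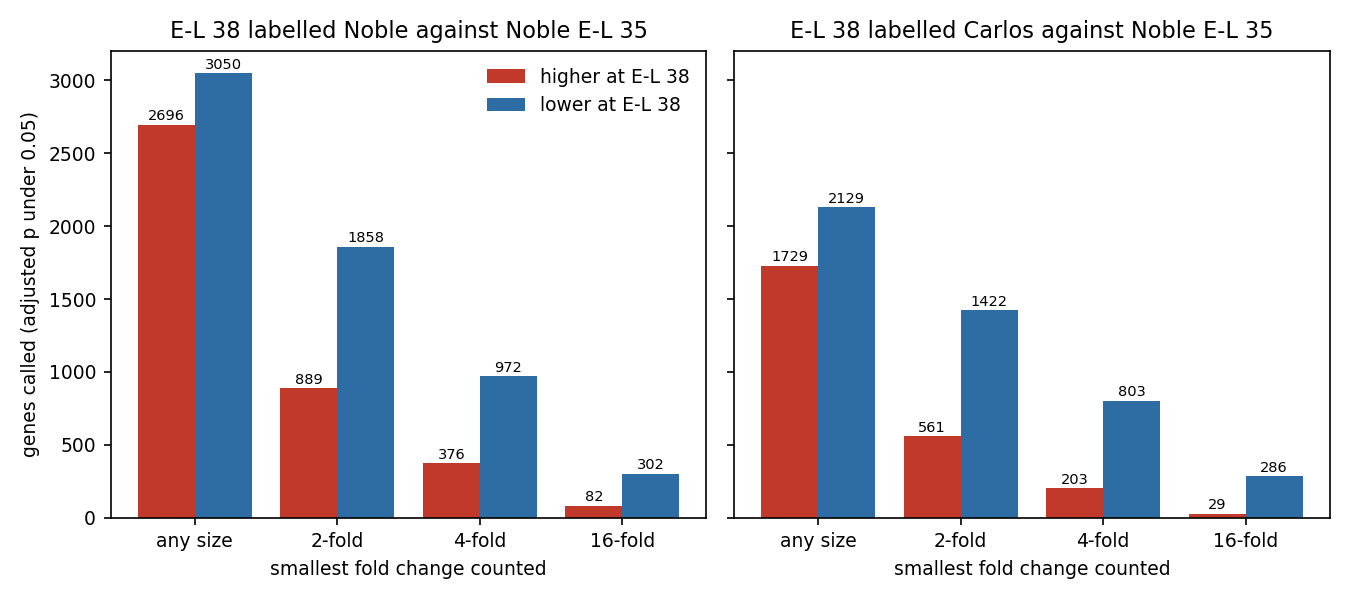
Number of genes called (y axis) by the smallest fold change counted (x axis) for the E-L 38 libraries labelled Noble (left) and labelled Carlos (right), each against Noble E-L 35, with genes higher at E-L 38 in red and lower in blue. Lower genes outnumber higher ones in every pair of bars, from 3050 against 2696 at any size to 302 against 82 at 16-fold on the left.

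With the E-L 38 libraries labelled Carlos in place of those labelled Noble, fewer genes were called. There were 3858 (21.8%), of which 1729 rose (9.79%) and 2129 fell (12.1%). At 2-fold, 561 rose (3.18%) and 1422 fell (8.05%), and at 16-fold 29 rose (0.164%) and 286 fell (1.62%). The larger number of falls was thus present whichever label is taken at E-L 38. This count depended on single libraries, being 1993 without Carlos E-L 38 replicate 3, 2455 without Noble E-L 35 replicate 2 and 5800 without Carlos E-L 35 replicate 3. With only the 6 libraries compared in the fit it was 2317. The 16-fold counts moved as well, with 7 rising and 167 falling without Carlos E-L 38 replicate 3, 18 and 129 with only the libraries compared, 18 and 331 with DESeq2, and 12 and 163 with limma-voom. Without Noble E-L 35 replicate 2 they were 34 and 195. With Noble E-L 32 replicate 1 and Carlos E-L 35 replicate 3 left out as well, but Carlos E-L 38 replicate 3 kept, they were 48 and 278. With genes at 0 in one group set at the bound, 27 rose and 189 fell at least 16-fold.

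The difference between the labels in the size of the step was tested as an interaction. It asks whether the change from E-L 35 to E-L 38 is the same under both cultivar labels, and 5890 genes (33.4%) were called, 2976 (16.9%) with a more positive change in Noble and 2914 (16.5%) with a more negative one. This test takes every label as given, so an exchange at E-L 38 would enter it directly.

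Genes of the E-L 32 label difference were followed through the step, since the E-L 32 libraries enter neither side of it. Of the 838 genes at least 4-fold higher in Noble at E-L 32, 38 rose (4.53%) and 252 fell (30.1%) in Noble E-L 38, beside 15.3% and 17.3% of all genes. With the E-L 38 libraries labelled Carlos, 40 of these genes rose (4.77%) and 184 fell (22.0%), beside 9.79% and 12.1% of all genes in that contrast. Of the 395 genes at least 4-fold higher in Carlos at E-L 32, 74 rose (18.7%) and 55 fell (13.9%) in Noble E-L 38. With the E-L 38 libraries labelled Carlos, 18 rose (4.56%) and 61 fell (15.4%). Falls outnumbered rises among the Noble-high genes with either E-L 38 group. The shares of the Carlos-high genes that rose and fell with the E-L 38 libraries labelled Noble, and the share that fell with those labelled Carlos, lay near the shares of all genes.

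Called rises of any size were most frequent among abundant genes, while changes of at least 2-fold in either direction were more frequent at low levels. The tested genes were split into 5 equal classes by mean log2 CPM over all 18 libraries. From the lowest to the highest class, the number that rose was 255, 347, 587, 749 and 758. The number that fell was 624, 811, 614, 566 and 435. In the lowest class 7.22% of 3532 genes rose and 17.7% fell, and in the highest 21.5% rose and 12.3% fell. Rises of at least 2-fold numbered 254, 216, 167, 150 and 102 from the lowest to the highest class, and falls of at least 2-fold numbered 619, 635, 283, 194 and 127. Median gene length, as the tables give it, was 1405 bases for genes that rose, 1587 for genes that fell and 1464 for all tested genes.

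**Figure D3:**
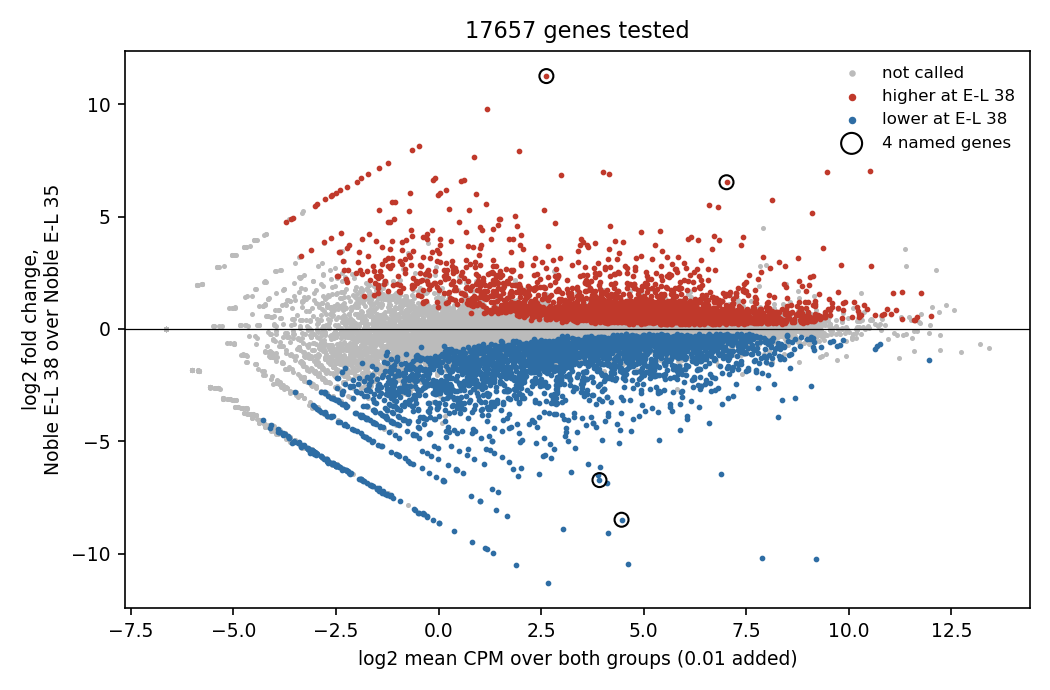
Log2 fold change of Noble E-L 38 over Noble E-L 35 (y axis) against log2 mean CPM over both groups (x axis) for the 17657 genes tested, with genes called higher in red, called lower in blue, not called in grey and the 4 named genes circled. The 1st and 99th percentiles of the change were -5.31 and 3.14. In the highest level class, which is set by mean log2 CPM over all 18 libraries and not by this x axis, 758 of 3532 genes rose.

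The most abundant genes were largely shared by the stages. The 100 identifiers of highest mean TPM at Noble E-L 38 and the 100 at Noble E-L 35 had 75 in common, and the 100 of the E-L 38 libraries labelled Carlos shared 68 with those of Noble E-L 35. Of the 100 at Noble E-L 38, 37 rose and 2 fell, and of the 100 at Noble E-L 35, 22 rose and 5 fell, beside 15.3% and 17.3% of all genes and 21.5% and 12.3% of the highest level class. The list is chosen on the same libraries, so these counts describe it and test nothing. The 100 most abundant genes of each library took 29.8 ± 0.401% of TPM at Noble E-L 38 and 27.0 ± 1.07% at Noble E-L 35 (SD, n = 3 each, two-sided exact permutation p = 0.1). The share of the top 10 was 10.2 ± 0.456% and 10.6 ± 1.03%, which overlapped (exact permutation p = 0.7). In the E-L 38 libraries labelled Carlos the top 10 took 12.1, 13.3 and 12.9%, all above the 9.68, 11.7 and 10.5% of Noble E-L 35. Their top 100 took 28.2, 29.6 and 30.3%, against 25.9, 28.1 and 27.0% in Noble E-L 35. These differences with the Carlos label were not tested.

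Some genes were counted in all libraries of one stage and in none of the other. Counts were present in all 3 Noble E-L 38 libraries and in no Noble E-L 35 library for 51 genes, of which 20 passed the low-count filter and 18 were called. The reverse held for 198 genes, of which 108 passed the filter and 95 were called. Of all genes tested, 32.5% were called. Both sets were chosen on the same libraries that were tested, so a high share called is built in and tests nothing. The median level of the gained genes where present was 0.197 CPM and that of the lost genes 0.207 CPM, close to the 0.0982 to 0.151 CPM that 3 counts are worth in one of these libraries. Of the 51 gained genes, 23 were at 0 in all E-L 38 libraries labelled Carlos, and 4 had counts in all of them. Of the 198 lost genes, 48 were also at 0 in all E-L 38 libraries labelled Carlos, and 58 had counts in all of them. At this depth a level of 0 does not show that a transcript was absent.

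Summed TPM shows how the rising and falling genes lay across all groups. The genes were chosen by the Noble E-L 38 and Noble E-L 35 values, so their difference in those libraries is a description. A less extreme share in the E-L 38 libraries labelled Carlos is also favoured by that choice. The levels of the other 4 groups are on neither side of that contrast, but their libraries enter the shared estimate of the spread behind the calls. Without Carlos E-L 35 replicate 3, 1040 genes rose and 2162 fell at least 2-fold. The 889 genes that rose at least 2-fold took 9.21, 9.21 and 8.99% of TPM in Noble E-L 38 libraries and 2.75, 2.44 and 2.82% in Noble E-L 35 libraries. The Carlos-labelled E-L 38 libraries gave them 4.22, 4.13 and 6.21%, all below the Noble E-L 38 libraries and above the Noble E-L 35 ones. In Carlos E-L 35 they took 7.63, 7.65 and 3.03%, so replicate 3 lay near Noble E-L 35 and the others near Noble E-L 38. At E-L 32 they took 3.14, 3.03 and 2.998% in Noble and 5.20, 5.22 and 5.28% in Carlos.

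The 1858 genes that fell at least 2-fold took 1.43, 1.42 and 1.53% of TPM in Noble E-L 38 libraries and 5.68, 6.01 and 5.56% in Noble E-L 35 libraries. They took 8.72, 9.10 and 9.13% at Noble E-L 32, so along the Noble label their share was lower at each later stage. The Carlos-labelled E-L 38 libraries gave them 4.35, 4.30 and 3.13%, between the Noble stages, and in Carlos E-L 35 they took 3.25, 3.24 and 3.13%. At Carlos E-L 32 their share was 8.02, 8.02 and 8.15%.

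**Figure D4:**
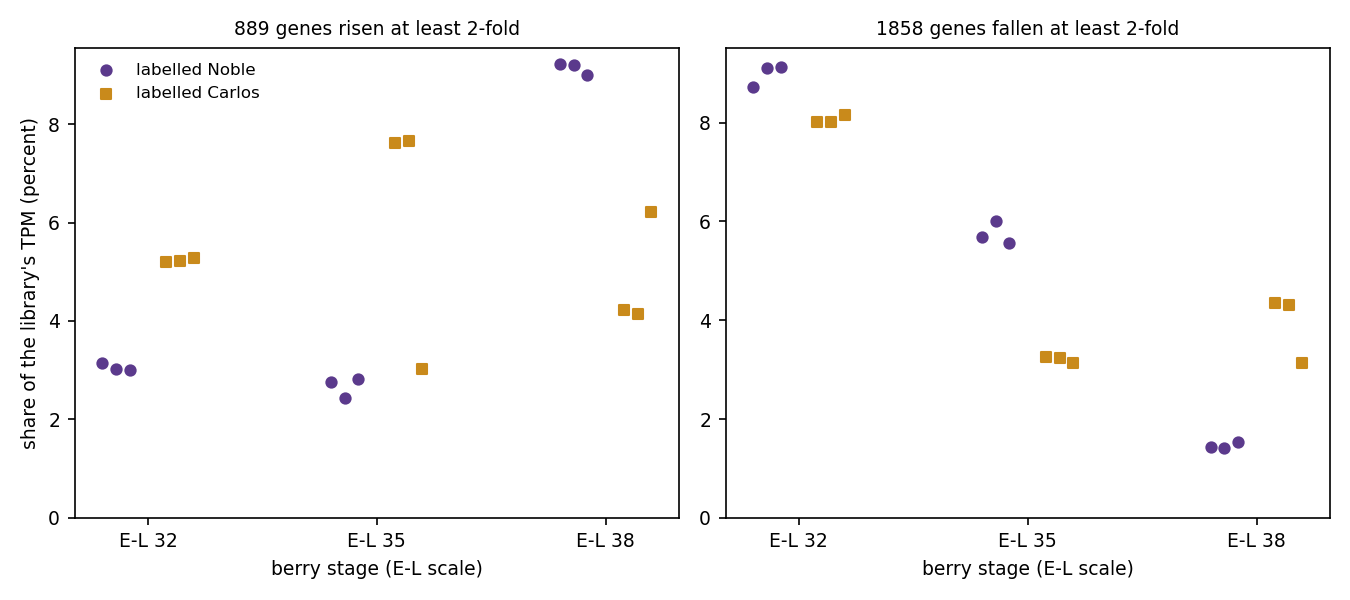
Share of each library's TPM (y axis, percent, starting at 0) held by the genes that rose and by those that fell at least 2-fold, by stage (x axis), with 1 point per library and labels by colour and marker. The rising genes take 9.21, 9.21 and 8.99% in Noble E-L 38, against 2.75, 2.44 and 2.82% in Noble E-L 35, and the libraries labelled Carlos at E-L 38 lie between. The genes were chosen on the libraries labelled Noble, which favours this order.

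Genes that changed at least 16-fold were likewise chosen by the Noble E-L 38 and Noble E-L 35 values. A gap between the labels at E-L 38 is thus favoured by the choice, and the values describe it only. The 302 genes that fell at least 16-fold took 0.00706, 0.00674 and 0.00886% of TPM in Noble E-L 38 libraries and 0.522, 0.494 and 0.530% in Noble E-L 35 libraries. In the E-L 38 libraries labelled Carlos they took 0.546, 0.515 and 0.557%, a range that reaches that of Noble E-L 35. The median of their mean levels was 0.0143 CPM in Noble E-L 38 and 0.189 CPM in the E-L 38 libraries labelled Carlos, against 1.01 CPM in Noble E-L 35, so by the median the E-L 38 libraries labelled Carlos lay below Noble E-L 35. The 82 genes that rose at least 16-fold took 1.23, 1.21 and 1.03% in Noble E-L 38 libraries and 0.0207, 0.0179 and 0.0388% in Noble E-L 35 libraries. They took 0.137, 0.156 and 0.416% in the E-L 38 libraries labelled Carlos. In Carlos E-L 35 they took 1.08, 1.10 and 0.0784%, where replicate 3 again lay apart from replicates 1 and 2.

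In full, 4 identifiers are described, the 2 with the largest rise and the 2 with the largest fall among those whose call and direction hold with either E-L 38 group. They were also required to show no overlap between all 6 E-L 38 libraries and Noble E-L 35, and a mean of at least 10 CPM in Noble E-L 38 or Noble E-L 35. Both E-L 38 groups being called is thus a condition of the choice. Rank was by the log2 change in Noble E-L 38 against Noble E-L 35, so a larger change under the Noble label is favoured by the choice. All adjusted p-values are from edgeR's quasi-likelihood test over all genes.

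VIT_09s0018g01360 had 13.3, 13.9 and 9.80 CPM in Noble E-L 38 libraries and 0 in all Noble E-L 35 libraries. Set against 3 counts over the Noble E-L 35 group it was at least 314-fold higher (adjusted p = 0.00240), and at least 188-fold without Noble E-L 35 replicate 2, which lowers the depth of that group. In the E-L 38 libraries labelled Carlos it had 1.54, 0.890 and 4.28 CPM, lower than in any library labelled Noble at that stage. That is at least 56.9-fold above Noble E-L 35 (adjusted p = 0.0219), and at least 30.9-fold without Carlos E-L 38 replicate 3, where the call is lost (adjusted p = 0.0730). The call is also lost without Noble E-L 35 replicate 2 (at least 34.1-fold, adjusted p = 0.0634) and with limma-voom (adjusted p = 0.0540), and over 26 alternatives the adjusted p ranged from 0.00128 to 0.0730. In Carlos E-L 35 it had 4.75, 3.84 and 0 CPM. Its expected counts were not whole in 9 libraries, so reads were shared with similar genes and its level is uncertain to that extent.

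VIT_03s0088g00060 had 264, 273 and 232 CPM in Noble E-L 38 libraries and 3.67, 1.08 and 3.72 CPM in Noble E-L 35 libraries. The groups were far apart, and the log2 fold change was 6.53 ± 1.02 (SE, adjusted p = 0.000265). The E-L 38 libraries labelled Carlos had 26.0, 25.8 and 30.1 CPM, above Noble E-L 35 and below the libraries labelled Noble, and against Noble E-L 35 the log2 change was 3.30 ± 0.90 (SE, adjusted p = 0.0187). That second call is lost without Noble E-L 35 replicate 2 (adjusted p = 0.0733) and with limma-voom (adjusted p = 0.108), and over 26 alternatives the adjusted p ranged from 1.18e-07 to 0.108. In Carlos E-L 35 it had 120, 117 and 5.41 CPM, so replicate 3 was close to Noble E-L 35. Its expected counts were not whole in 16 libraries. On the length-scaled level, VIT_03s0088g00060 at 341 ± 21.1 TPM stood above VIT_09s0018g01360 at 6.86 ± 1.11 TPM in Noble E-L 38 (SD, n = 3 each).

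VIT_04s0023g02310 had 0, 0 and 0.328 CPM in Noble E-L 38 libraries and 50.6, 38.3 and 42.6 CPM in Noble E-L 35 libraries. All 8 of its counts at Noble E-L 38 came from replicate 3. The log2 fold change was -8.49 ± 1.15 (SE, adjusted p = 8.78e-05), and the ratio of mean CPM was 401. The gene was at least 630-fold lower without Noble E-L 38 replicate 3, and the ratio was 267 without replicate 1 or replicate 2 of Noble E-L 38. In the E-L 38 libraries labelled Carlos it had 3.77, 5.16 and 0.0420 CPM, where replicate 3 was low, and against Noble E-L 35 the log2 change was -3.87 ± 0.82 (SE, adjusted p = 0.00470). The ratio of mean CPM in that contrast was 14.7. It ranged from 9.82 without Carlos E-L 38 replicate 3 to 23.0 without Carlos E-L 38 replicate 2. In Carlos E-L 35 the gene had 0.471, 0.662 and 0.0466 CPM. Along the Carlos label it thus rose from E-L 35 to E-L 38 (log2 change 2.89, adjusted p = 0.0258, edgeR's quasi-likelihood test). VIT_04s0023g02310 is also one of the 184 genes of the label comparison, where log2 of Noble over Carlos was 5.23 for E-L 32, 6.76 for E-L 35 and -4.61 for E-L 38. Its expected counts were whole in every library.

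VIT_08s0040g00820 had 0.151, 0.215 and 0.451 CPM in Noble E-L 38 libraries and 28.2, 33.5 and 28.3 CPM in Noble E-L 35 libraries. The log2 fold change was -6.72 ± 0.68 (SE, adjusted p = 9.68e-06). In the E-L 38 libraries labelled Carlos it had 4.78, 4.63 and 0.336 CPM, and against Noble E-L 35 the log2 change was -3.21 ± 0.53 (SE, adjusted p = 0.00101). Replicate 3 of that group lay at the level of the libraries labelled Noble, and the other replicates lay higher. The ratio of mean CPM against Noble E-L 35 was 9.24, from 6.38 without Carlos E-L 38 replicate 3 to 12.1 without Carlos E-L 38 replicate 1. In Carlos E-L 35 the gene had 3.61, 3.53 and 2.75 CPM. Along the Carlos label no change from E-L 35 to E-L 38 was called (log2 change -0.025, adjusted p = 0.979, edgeR's quasi-likelihood test). In earlier berries it had 25.8, 18.7 and 22.0 CPM at Noble E-L 32, below or near its Noble E-L 35 level. Its expected counts were whole in every library.

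**Figure D5:**
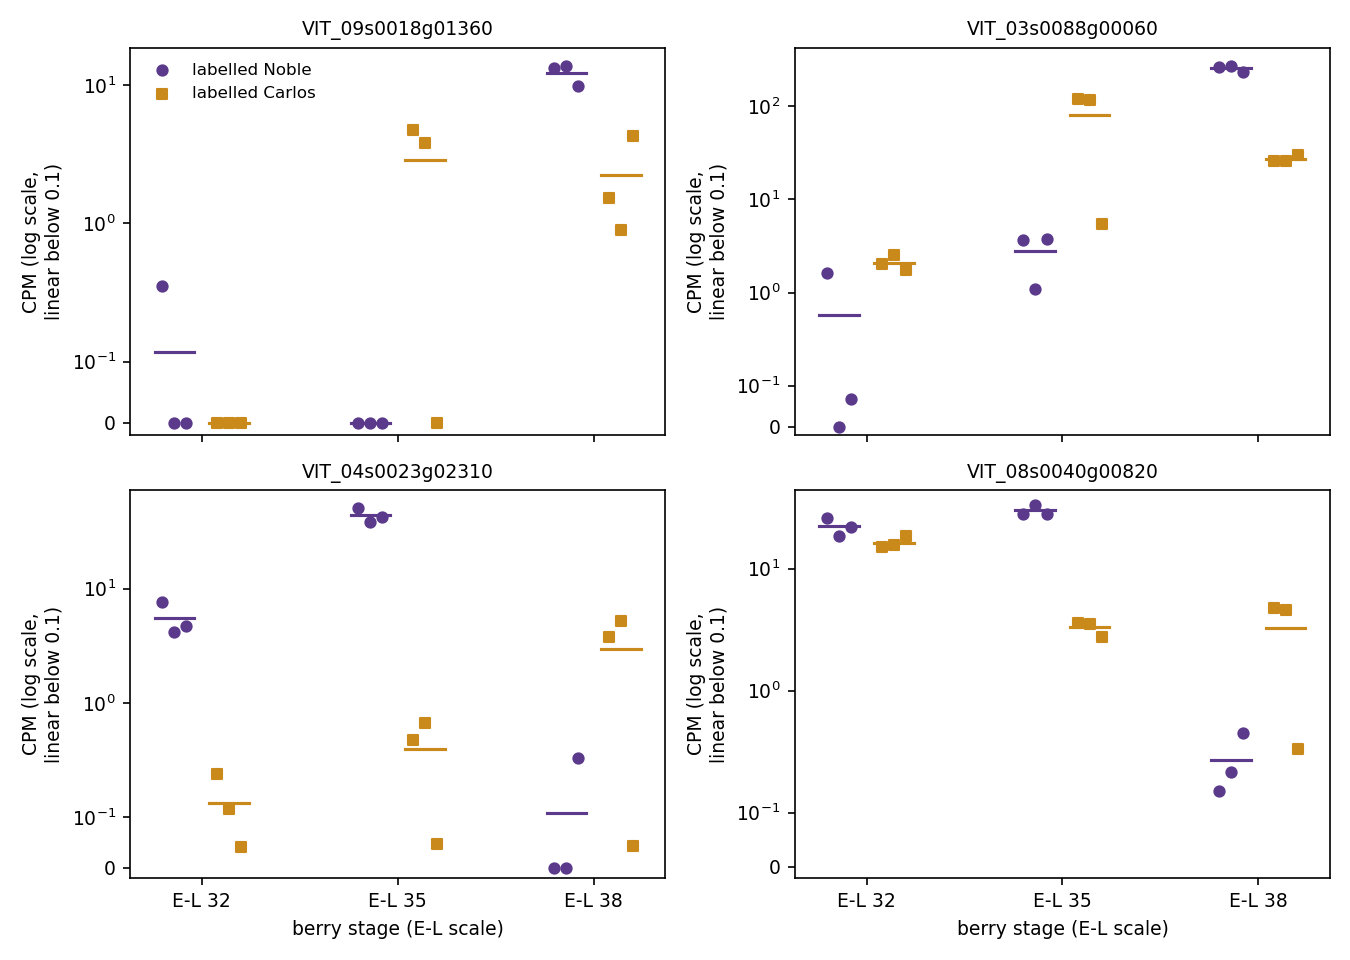
CPM (y axis, log scale, linear below 0.1) of the 4 named identifiers by stage (x axis), with 1 point per library, labels by colour and marker, and a line at each group's mean. At E-L 38 the libraries labelled Noble lie further from Noble E-L 35 than at least 2 of the 3 libraries labelled Carlos in each panel, as for VIT_03s0088g00060 at 264, 273 and 232 CPM against 26.0, 25.8 and 30.1 CPM. The identifiers were ranked by the change under the Noble label, so this order is favoured by the choice.

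Identifiers share a prefix before the letter g, and 145 prefixes had at least 10 tested genes. No such prefix had most of its genes called in the same direction. The highest share of genes that rose within a prefix was 33.3% and the highest share that fell was 47.1%, beside 15.3% and 17.3% of all genes. These are the extremes of 145 prefixes, and differences between prefixes were not tested. Calls were about as frequent among the 2081 tested genes with an expected count that was not whole in some library (34.1%) as among the 15576 with whole counts throughout (32.3%, tolerance 0.001).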

How the data were processed

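Total RNA of berries was sequenced in 18 libraries. Groups, stages and replicate numbers were taken from the labels. The members and the gene sets were chosen with earlier results of these data known. The authors deposited a table per library with an expected count, a TPM and an FPKM for each identifier, per the file headers. STAR 2.7.6a and RSEM 1.3.3 were used, per the submitters' processing notes. What genome build and annotation were used, and whether counting used strand, is not given in the sources used here, and antisense or overlapping genes may therefore share counts. How well reads of either cultivar match that reference is not known.

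Expected counts were rounded to whole numbers. Genes were filtered with filterByExpr, libraries were scaled by TMM, and all 18 libraries were fitted with 1 coefficient per group by edgeR 4.0.16 (quasi-likelihood F test, R 4.3.3). Benjamini-Hochberg adjustment ran over 17657 genes. SE is the log2 fold change over the square root of F. CPM is the rounded count scaled to a common total after TMM, and correlations used log2 CPM with a prior count of 2. TPM served for shares and FPKM was not used. No pair of the 6 libraries was alike within sampling noise. The scripts were tested on simulated counts. Alternatives were RLE and upper-quartile scaling, no filter, DESeq2 1.42.0, limma-voom (limma 3.58.1), a replicate block, only the libraries compared, exchanged E-L 38 labels and each library left out. Gene lists for ripening pathways and cell types (22) were planned, 0 could be matched to identifiers, and none was tested. Identifiers were named by rule: the 2 largest rises and 2 largest falls among called genes without overlap, and the 2 largest label differences at E-L 32.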

Additional observations from a re-analysis of the deposited data

Results flagged for a closer look

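The change between veraison and maturity differed between the labels in the interaction test of edgeR for 5890 genes, and the following identifiers were among them. The values are the log2 change in libraries labelled Noble minus that in libraries labelled Carlos, with adjusted p from the quasi-likelihood test. VIT_09s0018g01360 differed by 11.61 (adjusted p = 0.00460) and VIT_03s0088g00060 by 8.09 (adjusted p = 0.000222), both more positive in Noble. VIT_04s0023g02310 differed by -11.37 (adjusted p = 4.22e-05) and VIT_08s0040g00820 by -6.70 (adjusted p = 3.43e-05), both more negative in Noble. Both pairs were ranked by the change in Noble E-L 38 against Noble E-L 35, which is part of this difference. Large values in these directions are thus partly built in by the choice. Of the label-check identifiers, VIT_04s0008g04060 differed by -22.21 (adjusted p = 1.11e-06) and VIT_06s0061g00970 by 11.22 (adjusted p = 0.0341). The fitted value of VIT_06s0061g00970 rests on 13 counts in Noble E-L 38, 21 in Carlos E-L 35 and none in Noble E-L 35 or Carlos E-L 38. Fitted differences of genes with groups at 0 depend on the prior count and are not sizes of change. Each of these values takes the E-L 38 labels as given, and would be a comparison of crossed cultivars if the labels were exchanged, which was not tested.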

How the results depend on the processing

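The count of genes called in Noble E-L 38 against Noble E-L 35 (5746) ranged from 4245 to 7576 when each library was left out. Under the other settings that keep the labels it ranged from 5287 (only the libraries compared) to 7260. The count of 7260 came without 3 libraries together, Noble E-L 32 replicate 1, Noble E-L 35 replicate 2 and Carlos E-L 35 replicate 3. DESeq2 called 6527, limma-voom 5638 and the fit without a filter 5530. With the replicate block it was 5381. Deviations of same-numbered libraries correlated at 0.04, -0.00 and -0.01, so the numbers are not taken to pair the samples. With the E-L 38 labels exchanged the count was 3858. That count was 2317 with only the libraries compared and ranged from 1993 to 5800 when each library was left out. The interaction count (5890) ranged from 5003 to 7079 when each library was left out. It was 4254 with only the libraries compared and 7834 without the 3 libraries named above together. The share of E-L 32 label genes that kept their sign at E-L 38 (42.3%) was 39.1% with only the libraries compared, 39.1% at a 2-fold minimum and 5.98% for genes called at both earlier stages, and ranged from 36.7 to 45.1% when each library was left out. The last of these gene sets, the minimum level of 1 CPM (41.4%), and leaving out E-L 32 or Carlos libraries were chosen after seeing the data. The 4 named identifiers kept their call and direction in Noble E-L 38 against Noble E-L 35 under the 26 alternatives that keep the labels. Exchanging the labels gives a contrast in which they were chosen to be called. Causes of these shifts were not tested. Where a group is at 0, depth limits the fold to a bound, and counting intervals cover counting error only.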
